A study of Mus musculus with 12 samples.

Results

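Mmp9, Mmp19, Plau and Adam8 encode proteases that act outside the cell or at its surface, and their transcripts were followed in mouse peritoneal macrophages of young and aged mice with and without blockade of the prostaglandin E2 receptor EP2. The 4 genes were taken by name from a table of 1448 genes, and all 4 were above the lowest reported value in at least 1 sample. RNA of peritoneal macrophages was assayed with the NanoString nCounter, an instrument that counts fluorescent barcodes hybridized to transcripts and needs no amplification. The 12 samples fall into 4 groups of 3 mice. Young mice were 3 to 4 months old and aged mice were 20 to 22 months old, and each age had an untreated group and one dosed by oral gavage with PF-044, an EP2 antagonist, at 2.5 mg/kg per day over 6 weeks. The sources used here do not give the strain, the sex, a vehicle for the untreated mice, or a step that purified the macrophages.

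Macrophages release proteases to move through tissue and to remodel matrix. Mmp9 encodes gelatinase B, a secreted metalloproteinase that cleaves denatured collagen and basement membrane collagen, and Mmp19 encodes a secreted metalloproteinase that acts on basement membrane proteins. Plau encodes urokinase, the serine protease that turns plasminogen into plasmin, which in turn degrades fibrin and can activate other proteases. Adam8 encodes a membrane-bound metalloproteinase of leukocytes that sheds surface proteins. EP2, encoded by Ptger2, signals through cyclic AMP when prostaglandin E2 binds it.

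Values are the authors' normalized log2 values, and none lies below 4.32, which is 20 on the linear scale. A value at this floor says only that the transcript was not above the lowest value seen in that sample. Values above it fall, on the linear scale, on multiples of a step that is fixed within a sample and gene set, so that each can be read as an inferred count. The summed count equivalents were 175127 in aged untreated replicate 2 and from 533930 to 927614 in the other 11 samples. In aged untreated replicate 2, 741 genes were at the floor, against 333 to 527 elsewhere. The detection limit of a sample, taken as its lowest value above the floor in the set of genes that shares the step, was 93.0 on the linear scale there for Mmp19, Plau and Adam8 and 91.4 for Mmp9. A low value in this mouse is therefore only an upper limit, and the differences of the 4 proteases from aged untreated mice are given with and without it. Aged untreated replicate 1 stood apart as well, with the fewest genes at the floor, 333. Without it 1127 genes, against 1190 with all samples, were above the floor in some sample. Its sample quality weight from limma was 0.09, the lowest of the 12, against 0.18 in replicate 2. Why it stood apart was not tested.

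Of the fitted genes, those called at an adjusted p under 0.05 (limma with Benjamini-Hochberg adjustment over 1190 genes) were higher in 39.2% of calls for age in untreated mice and in 62.8% for PF-044 in aged mice. Under 5 other scalings of the samples these shares ran from 49.4% to 71.3% and from 34.9% to 55.0%. The same share for PF-044 in young mice was 59.5%, and from 29.5% to 51.4% under those scalings. With age in untreated mice the median over all tested genes was -0.07 as deposited and from 0.08 to 0.34 under the other scalings. The fall of Adam8 with age in untreated mice was -2.86 log2 units as deposited and from -2.70 to -2.45 under the other scalings. Against the median over all tested genes it was -2.79 as deposited and from -2.79 to -2.76 under the other scalings. A scaling that shifts each sample by a constant cannot change this second measure, so its narrow range is partly fixed in advance.

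The labelled cell type was checked against marker genes. Of 10 macrophage markers, 9 were in the table, and their summed linear values were 10803 to 11666 in young untreated, 8235 to 9249 in young PF-044, 4898 to 5564 in aged untreated and 7293 to 8175 in aged PF-044 mice. Markers of other cells were present as well. The sum of 3 B cell markers was 8838 to 9896 in young untreated and 9699 to 12542 in young PF-044 mice, but 42608 to 48222 in aged untreated and 23032 to 26470 in aged PF-044 mice. The sum of 9 T cell markers was 2142 to 2392, 1920 to 2097, 1022 to 1128 and 1921 to 2031 in the same order. The sum of 9 mast cell and basophil markers was 10510 to 11919, 11696 to 14659, 5634 to 6295 and 6345 to 9134 in that order, and Kit, Tpsab1 and Gata2 were not above the floor in any aged untreated mouse. Kit was also at the floor in aged PF-044 replicates 2 and 3, and had a log2 value of 4.37 in replicate 1. Of 9 neutrophil markers in the table, Ly6g, Camp, Elane and Mmp8 were at the floor in all 12 samples, and the summed level, 180.0 at the floor throughout, was 180.0 to 381.9 in aged untreated and 264.6 to 340.7 in the other groups. The 180.0 is aged untreated replicate 2, where all 9 were at the floor and only upper limits are known. Since all values come from bulk RNA, fewer cells of a type and less RNA per cell cannot be told apart, and the part of cell composition in the differences that follow was not tested.

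Adam8, the leukocyte sheddase, was lower in aged than in young mice with either treatment, and was higher in aged mice given PF-044 than in untreated aged mice. In young untreated mice its log2 values were 7.87, 7.96 and 7.98, with a mean of 7.94 ± 0.06 (SD, n = 3). With PF-044 young mice had 7.93, 8.07 and 7.96, a mean of 7.98 ± 0.07 (SD, n = 3). The 6 young mice therefore lay within a narrow band, from 233.7 upwards on the linear scale, and their treated and untreated members overlapped. Aged untreated mice had 5.52 in replicate 1 and 5.39 in replicate 3, while replicate 2 was at the floor with a limit of 6.54. Aged PF-044 mice had 6.32, 6.29 and 6.51, a mean of 6.38 ± 0.12 (SD, n = 3). No aged mouse reached the young range, and aged PF-044 mice lay above both measured aged untreated mice, but the limit of aged untreated replicate 2 is above all 3 treated values.

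The counts behind Adam8 were 181 to 348 in the young mice, 97 to 109 in aged PF-044 mice, and 40 and 32 in the measured aged untreated mice. For 40 counts the exact 95% Poisson interval is 32.9 to 62.7 on the linear scale and for 32 it is 28.8 to 59.4, against 204.8 as the lowest bound of any young untreated mouse. These intervals cover counting error only.

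**Figure D1:**
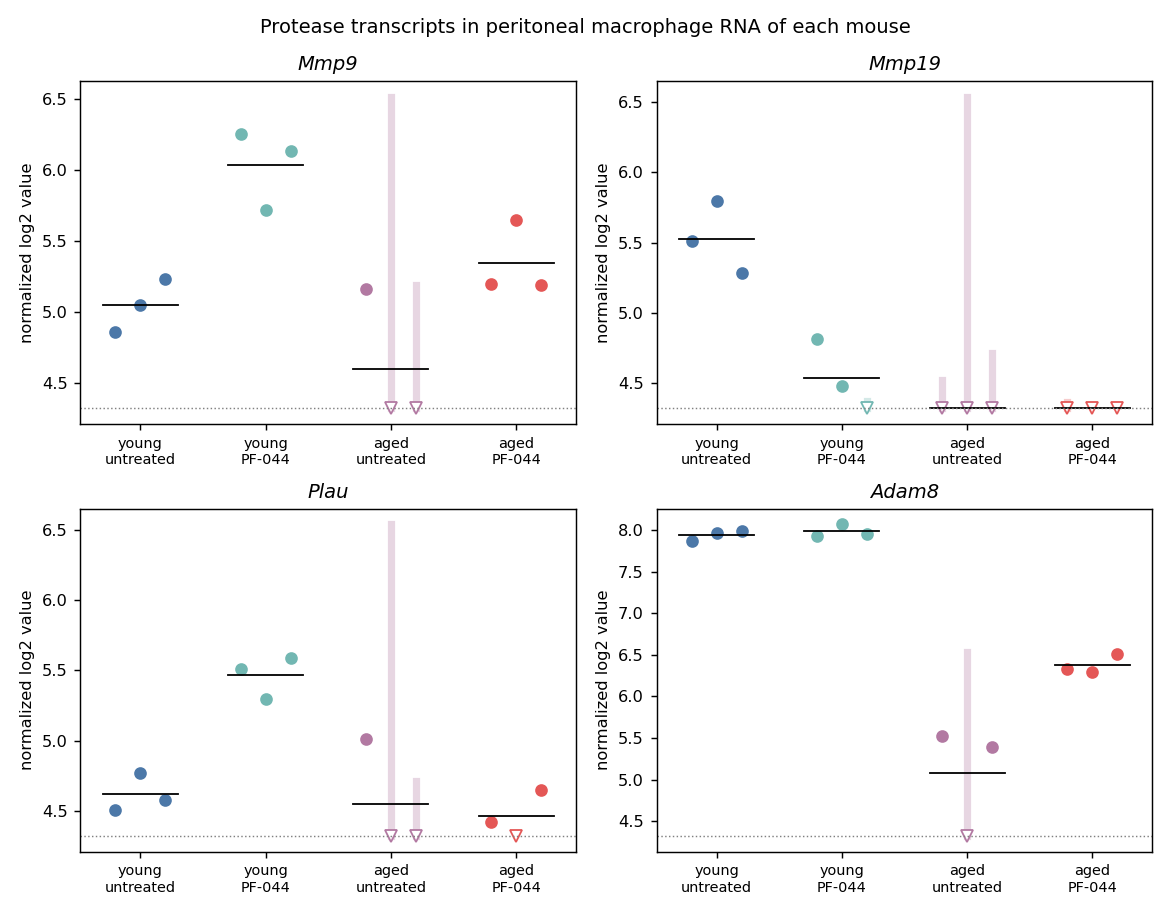
Normalized log2 value (y axis, a scale of its own in each panel) of Mmp9, Mmp19, Plau and Adam8 in each mouse, by group of 3 (x axis). Filled points are measured values, open triangles are values at the floor of 4.32 (dotted line) with a bar up to the detection limit of that sample, and black lines are group means with floor values entered as 4.32. The young mice lie near 8 for Adam8 with aged PF-044 mice from 6.29 to 6.51, and all 6 aged mice are at the floor for Mmp19.

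Promoter sequence was matched in RefSeq for Adam8, the member with the largest change, and not for the other 3. The bases before its start are shown because the regulators described later include factors whose motifs can be looked for there. The stretch covers the 250 bases before the start used in RefSeq's promoter table, chr7:139992563-139992812 on the minus strand of GRCm38.p6. The gene record of Adam8 runs over chr7:139978932-139995207, so this start lies 2645 bases inside its outer end, and other starts were not looked at. The capitals mark a GC box read on the opposite strand.
Adam8 upstream region: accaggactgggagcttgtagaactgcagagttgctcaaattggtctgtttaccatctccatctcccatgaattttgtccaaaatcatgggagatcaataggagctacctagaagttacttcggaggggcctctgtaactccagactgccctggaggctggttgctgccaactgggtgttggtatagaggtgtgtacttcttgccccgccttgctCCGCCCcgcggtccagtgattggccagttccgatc
The GC box (GGGCGG, searched on both strands) lies 35 to 30 bases before this start, and 33.0% of 32536 mouse promoters hold one in the same window. No match was found on either strand for the AP-1 motif TGANTCA (in 6.7% of promoters), the short cyclic AMP response element TGACG (17.9%), the PU.1 box GAGGAA (23.4%) or the TATA box TATAAA (12.3%). These are descriptions of letters in this window.

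Among untreated mice, 2 of the 4 genes were lower with age by limma, against 32.9% of all 1190 tested genes called lower and 54.0% called in either direction. The groups did not overlap for 56.4% of all tested genes. Adam8 differed by -2.86 log2 units (SE 0.26, adjusted p = 1.75e-06). Without aged untreated replicate 2 the difference was -2.48, and with every floor value raised to its detection limit and all 12 samples kept it was -2.12 (adjusted p = 2.84e-08). The fall of Adam8 was thus larger than the spread between mice in each of these fits.

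Mmp19, the basement membrane metalloproteinase, was measured above the floor in the young mice alone. Young untreated mice had log2 values of 5.51, 5.80 and 5.28, a mean of 5.53 ± 0.26 (SD, n = 3), from 46, 49 and 52 counts. In young PF-044 mice the values were 4.82 and 4.48, with replicate 3 at the floor. All 6 aged mice were at the floor. The 3 young untreated mice had the highest measured values, and both measured young PF-044 mice were lower. Aged untreated replicate 2, with a limit of 93.0 on the linear scale, could lie above all of them, and the limits of aged untreated replicates 1 and 3, 23.0 and 26.3, are above the lower measured young PF-044 value of 22.4.

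With age in untreated mice the fitted difference of Mmp19 was -1.21 log2 units (SE 0.15, adjusted p = 2.89e-05). However, both aged groups are constant at the floor, which lowers the spread that the fit shares over all 4 groups. The Mmp19 tests on the deposited values therefore rest on a spread smaller than that between young mice. Taken against detection limits, aged untreated mice were at least 1.21-fold lower than young untreated mice, or at least 1.88-fold lower without replicate 2. The test at the limits gave -0.27 (adjusted p = 0.561) with all samples and -0.91 (adjusted p = 0.000345) without replicate 2, so the call rests on leaving out that mouse once limits are used. Aged PF-044 mice, whose limits were close to the floor, were at least 2.28-fold lower than young untreated mice (fitted difference -1.21, adjusted p = 7.66e-05).

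Mmp9, gelatinase B, had log2 values of 4.86, 5.05 and 5.23 in young untreated mice, a mean of 5.05 ± 0.19 (SD, n = 3). In aged untreated mice replicate 1 had 5.16, from 23 counts, and replicates 2 and 3 were at the floor with limits of 91.4 and 36.5 on the linear scale. Both limits are at or above the 35.8 measured in replicate 1, so the floor values do not show that these mice had less Mmp9 than it. The age difference in untreated mice was -0.44 (SE 0.25, adjusted p = 0.163; 95% interval -0.99 to 0.10) and did not pass the test, nor did it without aged untreated replicate 2 (-0.31, adjusted p = 0.321). Leaving out aged untreated replicate 1, the only measured mouse of its group, gave -0.72 with an adjusted p of 0.00977, while floor values at their limits gave 0.58 (adjusted p = 0.109). A direction with age for Mmp9 in untreated mice could not be resolved at this depth.

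Plau, the urokinase gene, was near the floor in most mice. Young untreated mice had log2 values of 4.51, 4.77 and 4.58, a mean of 4.62 ± 0.13 (SD, n = 3), from 23 to 32 counts. Among aged untreated mice replicate 1 had 5.01 from 28 counts, and the other mice were at the floor. Replicate 1, the sample with the lowest quality weight, is above every young untreated mouse. The limit of 26.3 puts replicate 3 below replicate 1 but not below all young untreated mice, and the limit of 93.0 leaves replicate 2 undetermined. The age difference was -0.07 (SE 0.19, adjusted p = 0.776; 95% interval -0.48 to 0.34), and its sign was positive under 4 of 5 other scalings, none of which passed the test. Without aged untreated replicate 2 it was 0.046 (adjusted p = 0.861), and with floor values at their limits it was 0.80 (adjusted p = 0.0675), so no direction was resolved.

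PF-044 in aged mice went with higher Adam8. By limma 2 of the 4 genes, Adam8 and Mmp9, were called higher against 25.7% of all tested genes, but the Mmp9 call was lost in several fits. In either direction 40.9% of genes were called, and 45.8% had groups that did not overlap. Adam8 rose by 1.30 log2 units (SE 0.26, adjusted p = 0.00163), by 0.92 without aged untreated replicate 2 (adjusted p = 4.4e-05) and by 0.56 with floor values at their limits (adjusted p = 0.0308). Leaving out any 1 of the 12 samples kept the Adam8 difference between 0.92 and 1.52, with adjusted p-values up to 0.00789. Under the other 5 scalings it ran from 1.07 to 1.24.

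Adam8 in treated aged mice stood between the untreated aged and the young level. Aged PF-044 mice were still below young untreated mice (difference -1.56 log2 units, SE 0.26, adjusted p = 0.000479) and below young PF-044 mice (difference -1.61, adjusted p = 0.000384). Of all tested genes 34.5% were called against young untreated mice (19.5% lower), and 37.5% against young PF-044 mice. The 4 group levels of Adam8 thus ran from both young groups, which did not differ beyond their spread, through aged PF-044 to aged untreated mice.

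Mmp9 in aged PF-044 mice had log2 values of 5.20, 5.65 and 5.19, a mean of 5.35 ± 0.26 (SD, n = 3), from 41, 52 and 41 counts. All 3 exceed the single measured aged untreated value of 5.16, the closest by a small margin. The fitted difference was 0.74 (SE 0.25, adjusted p = 0.0323). It did not pass the test without aged untreated replicate 2 (0.60, adjusted p = 0.0777), and the call was also lost on leaving out aged untreated replicate 3 or any of the aged PF-044 mice, with adjusted p-values up to 0.121. With floor values at their limits the difference was -0.28, and without replicate 2 as well it was 0.17 (adjusted p = 0.459). Mmp9 is therefore reported as unresolved between the aged groups.

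Plau in aged PF-044 mice was at the floor in replicate 2 and had 4.42 and 4.65 in the other mice, from 26 and 30 counts. Its difference from aged untreated mice was -0.09 (SE 0.19, adjusted p = 0.74; 95% interval -0.50 to 0.32), and -0.20 without aged untreated replicate 2 (adjusted p = 0.41). With floor values at their limits it was -0.96 with all samples (adjusted p = 0.0397) and -0.40 without aged untreated replicate 2 (adjusted p = 0.0309), where an upper limit stands in for a level in the aged untreated group. For Mmp19 all 6 aged mice were at the floor, and no difference could be measured.

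In young mice, where floor values are few, 3 of the 4 genes changed with PF-044, against 14.1% of all tested genes. Mmp9 and Plau rose, against 8.40% of all genes called higher, Mmp19 fell, against 5.71% called lower, and Adam8 did not pass the test. The groups did not overlap for 39.4% of tested genes.

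Mmp9 in young PF-044 mice had log2 values of 6.25, 5.72 and 6.13, a mean of 6.04 ± 0.28 (SD, n = 3), from 83, 71 and 73 counts. These are the 3 highest measured Mmp9 values, although the limit of 91.4 in aged untreated replicate 2 is above the highest of them, 76.4 on the linear scale. The difference from young untreated mice was 0.99 (SE 0.25, adjusted p = 0.0212), and 0.83 to 1.03 under the other scalings. The adjusted p rose to as much as 0.0895 when young PF-044 replicate 1 or 3 or young untreated replicate 1 or 2 was left out, with the difference between 0.88 and 1.15 over all 12 omissions.

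Plau in young PF-044 mice had 5.51, 5.30 and 5.59, a mean of 5.47 ± 0.15 (SD, n = 3), from 34, 51 and 51 counts, and these too were the highest measured values, with the limit of aged untreated replicate 2 again above them. The difference was 0.85 (SE 0.19, adjusted p = 0.0105), and it passed the test in each of the 12 fits that left out a sample, with adjusted p-values up to 0.0439. When floor values are raised to limits the difference stays 0.85, since no young mouse is at the floor, but the wider spread shared with the aged untreated group gives an adjusted p of 0.146. Without aged untreated replicate 2 that p was 0.000918.

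Mmp19 moved the other way, with a difference of -0.99 (SE 0.15, adjusted p = 0.00143) between young PF-044 and young untreated mice. This SE is also lowered by the aged groups at the floor. The highest treated value, 4.82, lies under the lowest untreated value, 5.28. With replicate 3 of the treated mice at its limit of 20.8 on the linear scale and aged untreated replicate 2 left out the adjusted p was 0.00083, and it was 0.128 with that mouse kept at its limit. For Adam8 the difference was 0.04 with a 95% interval from -0.52 to 0.60, and its sign turned under 1 of 5 other scalings.

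In mice given PF-044, Plau was lower in aged than in young mice by a difference of -1.002 (SE 0.19, adjusted p = 0.0012), and 3 of the 4 genes were called lower with age there, against 22.5% of all tested genes. The aged values of Plau, up to 4.65, did not reach the lowest young PF-044 value of 5.30, and 51.6% of all tested genes had groups that did not overlap. For Mmp9 the difference was -0.69 (SE 0.25, adjusted p = 0.0483), which passed by a narrow margin and was lost under all 5 other scalings. It was also lost on leaving out any young untreated mouse, aged PF-044 replicate 1 or 3, or young PF-044 replicate 1 or 3, with adjusted p-values up to 0.162. Mmp19 differed by -0.22 (adjusted p = 0.309), a gap that is small because the young PF-044 mice are themselves close to the floor.

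The shallow library is in neither group when aged PF-044 mice are set against young untreated mice, and it enters that comparison only through the shared spread. Mmp9 differed by 0.30 (SE 0.25, adjusted p = 0.434; 95% interval -0.25 to 0.85) and Plau by -0.15 (SE 0.19, adjusted p = 0.626; 95% interval -0.56 to 0.26). Without aged untreated replicate 2 in the fit the adjusted p-values were 0.358 and 0.558. Among these and the young PF-044 mice, the young PF-044 group was the highest for both genes, and young untreated and aged PF-044 mice did not differ beyond their spread. The place of aged untreated mice in that order is not settled for either gene.

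**Figure D2:**
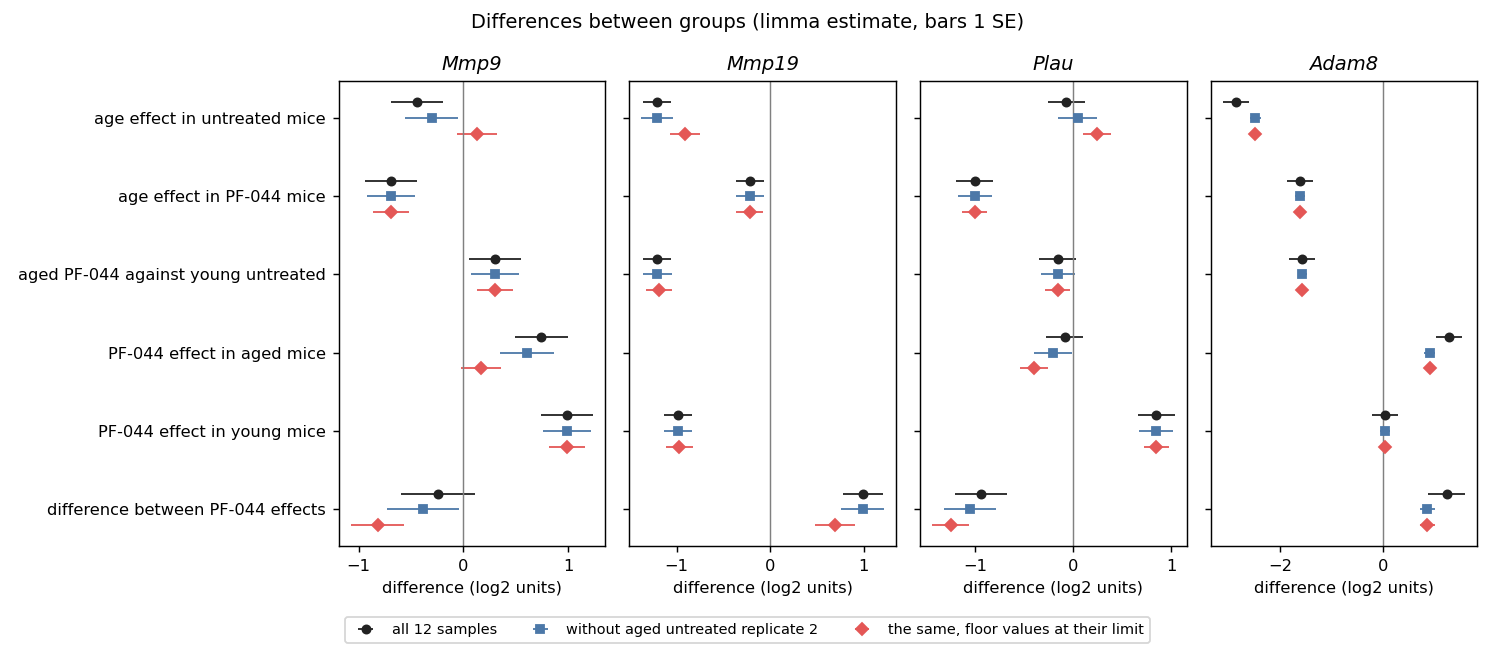
Difference between groups in log2 units (x axis, a scale of its own in each panel) for each comparison (y axis) and gene, with bars of 1 SE from limma. Black circles use all 12 samples, blue squares leave out aged untreated replicate 2, and red diamonds also set floor values to their detection limits. Adam8 keeps its fall with age and its rise with PF-044 in aged mice in all 3 fits, whereas Mmp9 moves from -0.44 to 0.13 for age in untreated mice, and Mmp19 has no point for PF-044 in aged mice because all 6 aged mice were at the floor.

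The effect of PF-044 differed between aged and young mice for Adam8 and Plau, tested as the difference between both effects in the same fit. Mmp19 passed as well, which makes 3 of the 4 genes against 25.7% of all tested genes, but with all 6 aged mice at the floor its value only repeats the effect in young mice with the sign turned. Adam8 differed by 1.25 (SE 0.36, adjusted p = 0.0234), with a rise in aged mice and none detected in young mice. Without aged untreated replicate 2 this was 0.87 (adjusted p = 0.000944), and at the detection limits with all samples it was 0.51 (adjusted p = 0.178). The call was lost on leaving out aged PF-044 replicate 3, young PF-044 replicate 1 or 3, or young untreated replicate 2 or 3, with adjusted p-values no higher than 0.0545. Centring on 4 reference genes gave 1.02 with an adjusted p of 0.0802.

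Plau differed by -0.93 (SE 0.26, adjusted p = 0.0217), as it rose with PF-044 in young mice and not detectably in aged mice. Leaving out aged PF-044 replicate 1 or 2, young PF-044 replicate 3, or young untreated replicate 1 or 3 raised the adjusted p to 0.0557 at most, and leaving out aged untreated replicate 2 with the floor at its limits gave -1.24. Mmp19 differed by 0.99 (SE 0.21, adjusted p = 0.00505). At the limits the Mmp19 difference was 0.05 (adjusted p = 0.956) with all samples and 0.69 (adjusted p = 0.0224) without aged untreated replicate 2. Mmp9 differed by -0.25 (SE 0.35, adjusted p = 0.648; 95% interval -1.02 to 0.53).

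The wider family of matrix metalloproteinases, ADAM and ADAMTS proteases was represented by 12 genes in the table, and 6 of them, Mmp1a, Mmp8, Mmp10, Mmp12, Adamts1 and Adamts4, were at the floor in all 12 samples. Besides Mmp9, Mmp19 and Adam8, the tested members were Adam19, Mmp3 and Mmp13. Adam19, another membrane-bound sheddase, fell with age in untreated mice by a difference of -1.63 (SE 0.24, adjusted p = 0.000114) and rose with PF-044 in aged mice by 1.35 (SE 0.24, adjusted p = 0.000882). Without aged untreated replicate 2 these were -1.51 and 1.22. Adam19 was at the floor in 2 of the 3 aged untreated mice, and with that replicate left out and floor values at limits the values were -1.31 and 1.03. As deposited, Mmp3 and Mmp13 did not pass limma's test in any of the 6 comparisons, and 0 of these had an unadjusted p under 0.05. Under the 5 other scalings 0 to 1 of the 6 tested genes of this family was called higher with age in untreated mice. Mmp19, Adam8 and Adam19 were called lower with age there under each of those scalings. Mmp9 was not called under any of them, with differences from -0.42 to -0.04 (limma, adjusted p from 0.12 to 0.895).

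In a list drawn up around plasminogen activation and fibrinolysis, not all of whose genes belong to that system, 7 of the 9 genes described here were tested. Masp1 and Masp2 were at the floor throughout. With age in untreated mice 2 of the 7 were lower, against 32.9% of all tested genes, and 1 to 2 were lower under other scalings. The list had a median of -0.33 against -0.07 over all tested genes. Its median turned positive, at up to 0.079, when centred on the reference genes, where the median over all tested genes was 0.34. Plaur, the receptor that holds urokinase at the cell surface, was lower with age by -1.27 (SE 0.07, adjusted p = 2.67e-08) and higher with PF-044 in aged mice by 0.33 (SE 0.07, adjusted p = 0.00233). Under other scalings the Plaur difference with PF-044 was 0.10 to 0.27, with an adjusted p of 0.311 at most. In young mice Plaur differed by -0.20 (adjusted p = 0.079), while Plau itself rose.

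The other gene lower with age, named after its values were seen, was Hgf, which encodes hepatocyte growth factor (-0.48, adjusted p = 0.0369). All 3 aged untreated mice were at the floor for Hgf, and its call was lost without aged untreated replicate 2 (adjusted p = 0.061) and under all 5 other scalings (adjusted p from 0.153 to 0.718). With PF-044 in aged mice Plaur and Hgf were higher and 2 of the 7 were lower, against 25.7% and 15.2% of all tested genes. The lower genes, also named after their values were seen, were Thbd, which encodes thrombomodulin, and S100a10, which encodes a plasminogen-binding protein. Under other scalings 0 to 2 were higher, and the adjusted p of Hgf ran up to 0.105, while 2 genes were lower. In young mice 1 was higher, Plau, and 1 lower, Thbd, with 1 to 3 lower under other scalings.

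Protease inhibitors gave little to compare. Of 4 described here, Timp3 and A2m were at the floor in all 12 mice, and Serpinb2 and Serpinb9 passed limma's test in none of the 6 comparisons. At an unadjusted p under 0.05, 1 of these 2 was lower with age in untreated mice, and neither passed in the other comparisons. Under the other scalings 0 to 1 was called higher and 0 to 1 lower with age in untreated mice. For the difference between PF-044 effects 0 to 1 was called higher. Timp1, Timp2, Mmp14, Adam10 and Adam17 were not analysed here. Among 7 cathepsins, which act mainly inside lysosomes, 1 was higher and 2 were lower with age in untreated mice, against 21.2% and 32.9% of all tested genes, and under other scalings 1 to 2 were higher and 0 to 1 lower. With PF-044 in aged mice 2 were higher and 2 lower, against 25.7% and 15.2%, and without aged untreated replicate 2 these were 2 and 1. Ctsw, the cathepsin of cytotoxic lymphocytes, was higher with PF-044 in aged mice by 1.21 (SE 0.15, adjusted p = 7.42e-05).

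Of 18 tested genes for matrix, adhesion molecules and shed substrates, 9 were lower and 1 was higher with age in untreated mice, against 32.9% and 21.2% of all tested genes. Under other scalings 6 to 9 were lower and 1 to 5 higher, and the median of -0.40 as deposited ran from -0.37 to 0.001. The median over all tested genes, -0.07 as deposited, ran from 0.08 to 0.34 under those scalings. Fn1, which encodes fibronectin, differed by -3.00 (SE 0.09, adjusted p = 1.13e-09), and Thbs1, which encodes the matrix protein thrombospondin-1, by -2.72 (SE 0.12, adjusted p = 6.77e-09). The subunits of the complement receptor Mac-1 were lower as well, Itgam by -1.30 and Itgb2 by -1.44, as were the cytokines Tgfb2 at -1.19 and Tnf at -1.21 (-0.85, adjusted p = 0.000266, without aged untreated replicate 2).

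With PF-044 in aged mice 10 of these 18 genes were higher and 1 was lower, against 25.7% and 15.2% of all tested genes, and 6 to 10 were higher under other scalings. Fn1 rose by 1.85 (SE 0.09, adjusted p = 1.67e-07) and Thbs1 by 1.79 (SE 0.12, adjusted p = 9.41e-07). Fcer2a, which encodes the IgE receptor CD23, a known substrate of ADAM8, rose by 1.15, and by 0.91 with aged untreated replicate 2 left out and floor values at limits. Il2ra rose by 1.11, and by 0.76 without aged untreated replicate 2 (adjusted p = 0.0389), and its adjusted p was as high as 0.0509 under the other scalings. Without that mouse 8 of the 18 were higher. In young mice 1 was higher and 3 were lower, against 8.40% and 5.71%.

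Il1b, the interleukin-1 beta gene whose product MMP9 can process, went the opposite way. It was higher with age by 1.40 (SE 0.22, adjusted p = 0.000197) and lower with PF-044 in aged mice by -1.64 (SE 0.22, adjusted p = 0.000117). Its 3 aged untreated values are among the 10 of 11921 above the floor that are not whole multiples of their sample's step.

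Of 17 transcription factors known to act on protease promoters, 14 were lower and 2 higher with age in untreated mice, against 32.9% and 21.2% of all tested genes, with a median of -0.90, and 9 to 14 were lower under other scalings. Fosb, an AP-1 subunit, differed by -2.84, and by -2.21 without aged untreated replicate 2, where it was at the floor. Fos differed by -1.38, the cyclic AMP responsive Crem by -1.82 (-1.48 without that mouse) and Nr4a1 by -1.85. The others past 1 log2 unit were Atf3 at -1.24, Cebpb at -1.23 and Nfkb2 at -1.38. With PF-044 in aged mice 12 of the 17 were higher and 2 lower, against 25.7% and 15.2% of all tested genes, with a median of 0.54, and 6 to 11 were higher under other scalings. Fosb rose by 1.83 (1.20 without that mouse), Nr4a1 by 0.90, Nfkb2 by 0.87 and Fos by 0.54, whereas Atf3 differed by 0.11 (adjusted p = 0.273). In young mice 4 were higher and 2 lower, against 8.40% and 5.71% of all tested genes, and under other scalings 2 to 3 were higher and 0 to 4 lower.

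Among 22 partner genes, those plotted with their differences together with Hgf, Thbd and S100a10, 18 were called with age in untreated mice and 17 kept the call without aged untreated replicate 2, the exception being Hgf. For PF-044 in aged mice 20 of 21 calls were kept, the exception being Tnf (0.37, adjusted p = 0.0502). Beside Adam19, Tnf, Fosb, Crem and Il2ra, no difference of these genes moved by more than 0.14 when that mouse was left out. Most of the 22 were named for a call in these same comparisons or after their values were seen. The counts called and kept are therefore partly fixed in advance. Of all tested genes 54.0% were called with age in untreated mice and 40.9% with PF-044 in aged mice.

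Beside these lists, 8 of 9 macrophage markers were lower with age in untreated mice, against 32.9% of all tested genes, with 7 to 8 lower under other scalings. With PF-044 in aged mice 8 of the 9 were higher, against 25.7%, with 4 to 9 higher under those scalings. Itgam is both a macrophage marker and an adhesion gene. Some other marker lists moved mostly in the same direction, and B cell markers moved the other way. Of 9 T cell markers all 9 were lower with age and 9 higher with PF-044 in aged mice, of 9 mast cell and basophil markers 7 were lower and 4 higher, and of 5 markers of resident large peritoneal macrophages 4 were lower and 4 higher. Under the other scalings 8, 6 to 7 and 4 markers of these 3 lists were lower with age in untreated mice. With PF-044 in aged mice 8 to 9, 1 to 5 and 2 to 4 were higher in the same order. All 3 B cell markers were higher with age in untreated mice under each of the 5 other scalings. With PF-044 in aged mice 1 to 3 of them were lower and 0 higher under those scalings. The part of these markers in the changes of the proteases and their partners was not tested.

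**Figure D3:**
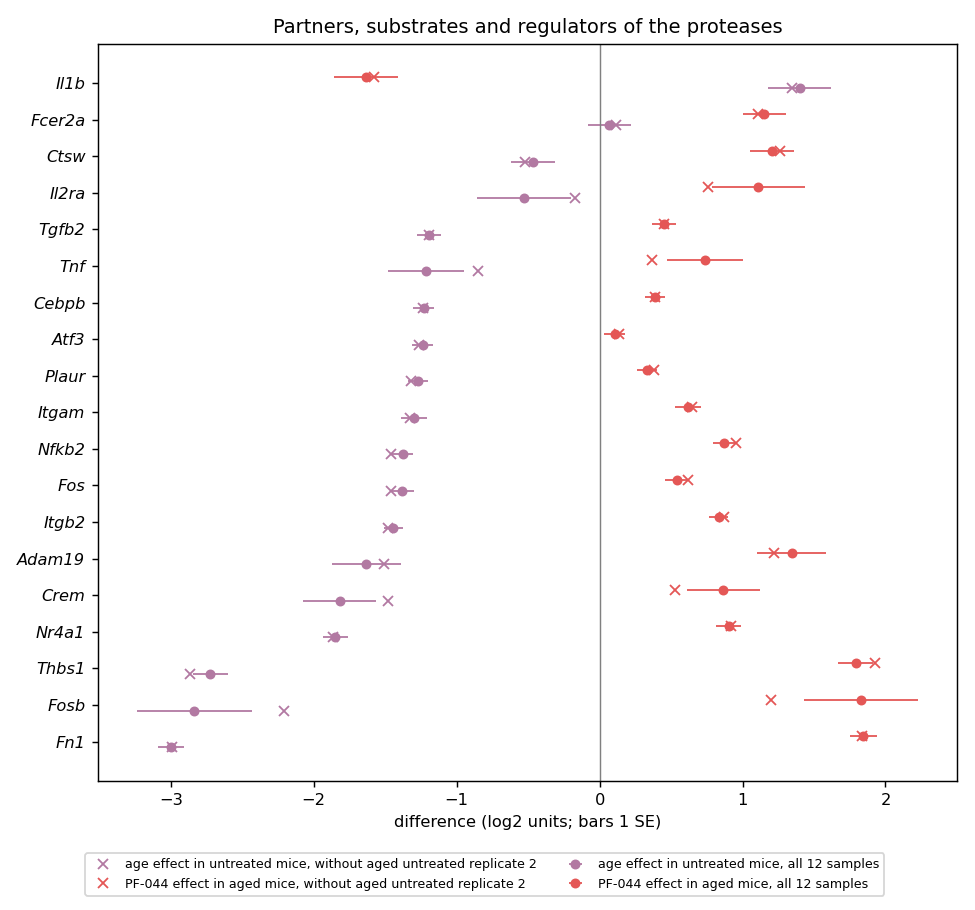
Difference in log2 units (x axis) of genes for partners, substrates and regulators of the proteases (y axis), for age in untreated mice (purple) and PF-044 in aged mice (red). Circles with bars of 1 SE use all 12 samples and crosses leave out aged untreated replicate 2. Fn1 and Thbs1 differ most with age among genes measured in every mouse, at -3.00 and -2.72, and Il1b runs opposite to most, at 1.40 and -1.64. Both comparisons use the same aged untreated mice.

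To describe which genes ran closest to each protease, every tested gene was centred on its mean over the 12 samples, and the root mean square (RMS) difference from each of the other 1189 genes was taken in log2 units. The measure favours genes of similar amplitude, and values at the floor count as equal, so it describes these samples and has no test. Adam8 ran closest to Osm, the oncostatin M gene, at 0.20, and the nuclear receptor gene Nr4a2 was also near, at 0.28. Both had young means above both aged means.

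Mmp9 ran closest to Cd163, the haemoglobin scavenger receptor gene of macrophages, and to Timeless, both at 0.29, and then to Rgl1 at 0.33. Plau ran closest to Mybl2 at 0.21, to Bub1b, a spindle checkpoint gene, at 0.23 and to Ptger4, the gene of the EP4 prostaglandin receptor, at 0.25. Mmp19, which was at the floor in 7 of 12 mice, ran closest to Calr and Trem1, both at 0.24, and to Ampd2 at 0.25.

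Among the proteases themselves Mmp9 and Plau were the nearest pair, with an RMS difference of 0.36, which placed Plau at rank 17 of 1189 for Mmp9 and Mmp9 at rank 72 for Plau. The other pairs were 0.69 to 1.05 apart. The 4 genes therefore gave no single profile over the 12 mice.

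**Figure D4:**
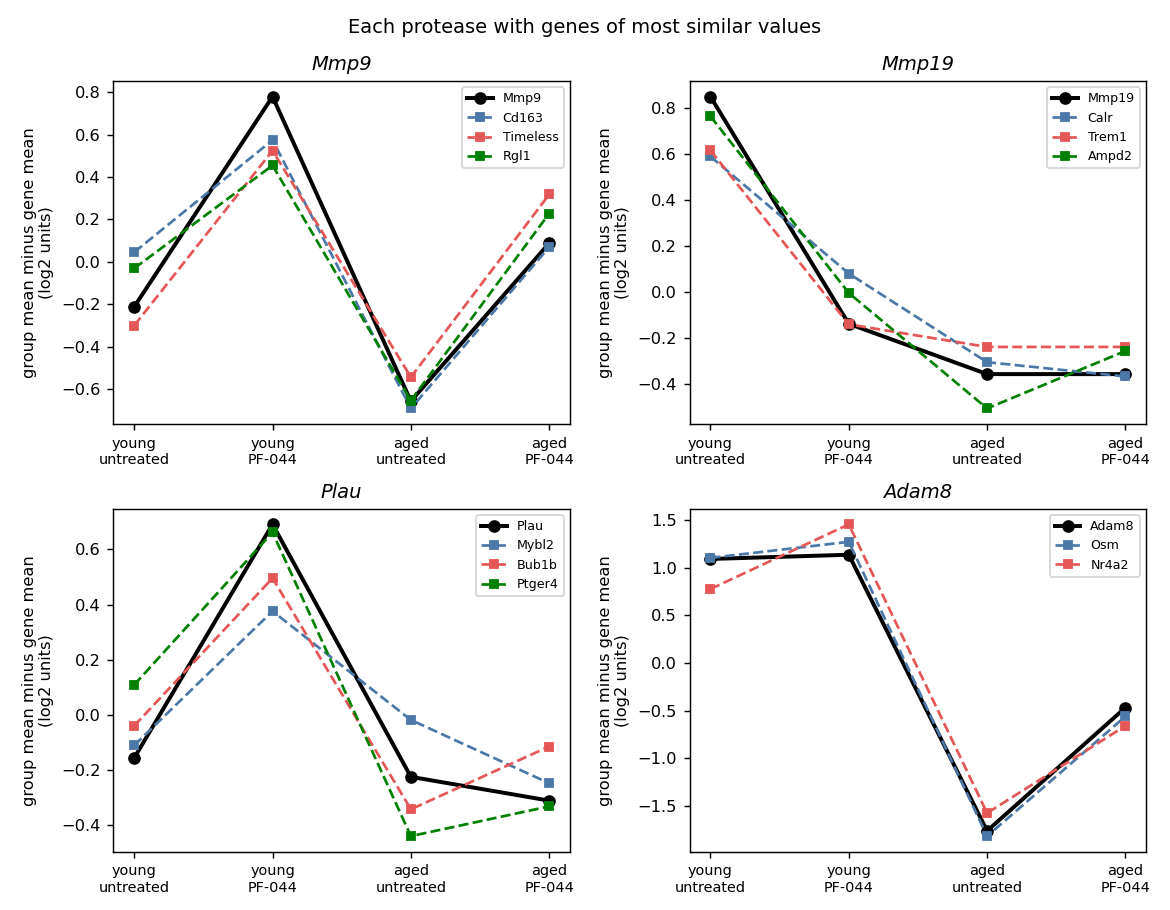
Group mean minus the mean of the 4 group means (y axis, log2 units, a scale of its own in each panel) for each protease (black) and the genes named here with a small RMS difference over 12 samples (coloured, dashed), by group (x axis), with floor values entered as 4.32. Mmp9 and Plau peak in young PF-044 mice, Mmp19 in young untreated mice, and Adam8 in both young groups.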

How the data were processed

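RNA of 12 mouse peritoneal macrophage samples was measured on the NanoString nCounter. The deposited values are normalized log2 values, per the file headers and the values themselves, and no further normalization was applied. Limma appears in the submitters' processing notes without a version. The sources used here do not state how the authors normalized the values or set the floor.

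Of 1448 genes, 258 were at the floor in all 12 samples and were left out, which left 1190. Steps between linear values were found for 3 gene sets (657, 368 and 165 genes). Of 11921 values above the floor, 11911 lay within 0.008 of a whole multiple. The search recovered 36 of 36 steps in data simulated with these sets and steps, but it failed in a trial that simulated closer steps in its starting sample. Linear models came from limma 3.58.1 (R 4.3.3; lmFit, then contrasts.fit, then eBayes with a mean trend). They had 4 group coefficients over all 12 samples, 8 residual and 3.27 prior degrees of freedom, and 6 contrasts. These share groups, and untreated or treated mice enter several of them. Tests were two-sided, with Benjamini-Hochberg adjustment over 1190 genes and a call at an adjusted p under 0.05. In simulated data for age in untreated mice over 1190 genes, 88.5% of 200 changed genes were recovered, with 6.84% of calls false. The simulation gave each gene the same spread in all samples, with no floor and no shallow sample. It therefore does not cover genes near the floor.

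The 4 genes and the gene lists were chosen with earlier results of these data known. Named partner genes are list genes called with a change of at least 1 log2 unit with age in untreated mice or PF-044 in aged mice, together with Plaur, Timp1, Timp2, Timp3, Mmp14, Adam17 and Adam10, and the 3 genes nearest to each protease. Results that fall under this rule for 2 genes are not reported here, and the gene lists were counted without them. Alternatives left out each sample, rescaled the samples, changed the floor or filter, weighted the samples, or blocked on replicate number. Detection limits, the omission of aged untreated replicate 2 together with limits, and centring within gene sets were added after seeing the data. Each sample is 1 mouse, per the series' design text, so the spread between replicates is between mice. The match of replicate numbers across groups was checked by correlating deviations from group means, and 5 of 18 same-numbered pairs correlated above 0.1 (lowest -0.15, highest 0.33), so the numbers were not taken to pair the mice. Promoter sequence came from RefSeq (GRCm38.p6).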

Additional observations from a re-analysis of the deposited data

Results flagged for a closer look

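In limma's test of the difference between the PF-044 effects in aged and young mice, 3 of the 4 proteases passed after Benjamini-Hochberg adjustment over 1190 genes, against 25.7% of all tested genes. For Adam8 the difference was 1.25 (adjusted p = 0.0234), with all 3 aged PF-044 mice above both measured aged untreated mice and overlapping groups in young mice, and the call was lost in 5 of the 12 fits that left out a sample. For Mmp19 it was 0.99 (adjusted p = 0.00505), with all 3 young PF-044 mice below all 3 young untreated mice and all 6 aged mice at the floor, so that it repeats the young effect with its sign turned and shows no difference by age. At the detection limits it was 0.050 (adjusted p = 0.956). For Plau it was -0.93 (adjusted p = 0.0217), with all 3 young PF-044 mice above all 3 young untreated mice and 3 of 6 aged mice at the floor, and the call was lost in 5 of the 12 fits. How each depends on aged untreated replicate 2 is given with its result.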

How the results depend on the processing

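Each of 29 results was recomputed under the alternatives, 709 values in all, of which 630 kept their direction and their side of the threshold. Fits that left out each of the 12 samples in turn gave the following ranges of log2 differences where a call or direction changed. Mmp9 ran from -0.72 to -0.31 for age in untreated mice, from -0.85 to -0.58 for age in PF-044 mice, from 0.59 to 1.02 for PF-044 in aged mice, from 0.88 to 1.15 for PF-044 in young mice and from -0.40 to 0.034 for the difference between PF-044 effects. Plau ran from -0.30 to 0.046 for age in untreated mice, from -0.20 to 0.14 for PF-044 in aged mice and from -1.05 to -0.70 for the difference. Adam8 ran from 0.87 to 1.47 for the difference. Genes called for PF-044 in young mice numbered 168, and 101 to 237 in these fits (101 without young PF-044 replicate 1 and 111 without young untreated replicate 3), 107 when centred on reference genes and 388 with sample quality weights. Genes called for the difference between PF-044 effects numbered 306, and 529 without aged untreated replicate 2 and with limits. Aged PF-044 against young untreated mice gave 410, and 643 with quality weights.

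With floor values at their limits, Mmp9 gave 0.58 for age in untreated mice, -0.69 for age in PF-044 mice (adjusted p = 0.0909), -0.28 for treatment of aged mice and -1.27 for the difference. Plau gave 0.80, 0.85 for PF-044 in young mice and -0.96 with PF-044 in aged mice. Mmp19 gave -0.27 for age in untreated mice, -0.97 for PF-044 in young mice and 0.050 for the difference, and Adam8 gave 0.51 for the difference. With aged untreated replicate 2 left out as well, Mmp9 gave 0.13 for age in untreated mice, 0.17 for treatment of aged mice and -0.82 for the difference, and Plau gave 0.24 and -0.40 for the first and second of these. Here the alternative's own construction moves the aged untreated values upward.

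Rescaling changed Plau for age in untreated mice to 0.14 (median of all genes), 0.12 (median of genes above the floor), 0.34 (reference genes) and 0.14 (within gene sets), for PF-044 in aged mice to 0.014 (quantile), and for aged PF-044 against young untreated mice to 0.021 (reference genes). Mmp9 for age in PF-044 mice became -0.51, -0.60, -0.52, -0.47 (quantile) and -0.66, and for PF-044 in aged mice 0.63, 0.62 and 0.51, in the same order. Adam8 for PF-044 in young mice became -0.049 (median of all genes) and for the difference 1.02 (reference genes). Quality weights gave -0.74 for Mmp9 with age in untreated mice (adjusted p = 0.0105) and 0.068 for Plau with PF-044 in aged mice. With no filter Mmp9 kept -0.69 and 0.74 for age in PF-044 mice and PF-044 in aged mice, at adjusted p-values of 0.0775 and 0.0556, and with only the compared groups in the fit these were 0.0502 and 0.122. A common floor of 100 put all aged Adam8 values at that floor, so that PF-044 in aged mice gave 0.00 and the difference -0.044, and it left the other 3 genes without a value. Restricting the table to genes above the floor in all samples left none of the 4. Unless its construction shows it, the cause of a change was not tested.

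With the replicate number as a block, Mmp9 for age in PF-044 mice kept -0.69 with an adjusted p of 0.0701, and no other call of the 4 genes changed. The block gave 651, 445, 502, 166, 319 and 416 called genes against 643, 446, 487, 168, 306 and 410 for age in untreated mice, age in PF-044 mice, PF-044 in aged mice, PF-044 in young mice, the difference, and aged PF-044 against young untreated mice. Of 12 samples, 7 correlated best with a sample of their own number. Depth limits Mmp9, Mmp19 and Plau, whose inferred counts above the floor were 21 to 83.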

Other observations

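Of 11921 values above the floor, 10 were not whole multiples of the step of their sample and gene set. They were Gapdh in the 3 aged PF-044 mice, Il1b in the 3 aged untreated mice, Ptger2, the gene of the receptor EP2, in aged untreated replicates 2 and 3 and young PF-044 replicate 2, and Ptges, the gene of prostaglandin E synthase, in aged untreated replicate 2. Ptger2 and Ptges both read 80.0 on the linear scale in aged untreated replicate 2, and Ptger2 read 60.7 in aged untreated replicate 3. All values of Mmp9, Mmp19, Plau and Adam8 above the floor were whole multiples of their step. Gapdh is 1 of the 4 reference genes used in the centring alternative.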
